A study of Mus musculus with 9 samples.

Results

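The module comprised the semaphorins, plexins, neuropilin-1, ephrins, Eph receptors, Slits, Robos, netrins, Unc5 receptors and Dcc, the canonical ligands and receptors of axon guidance. Members were chosen by gene symbol, and a symbol was kept when at least 3 of the 9 libraries held 10 or more counts. The symbols matched 68 of 20731 genes, and 67 were kept: 34 ligands (20 semaphorins, 7 ephrins, 3 Slits, 4 netrins) and 33 receptors (10 plexins and neuropilin, 14 Eph receptors, 4 Robos, 5 netrin receptors). Efna4, which had 4 to 13 counts per library, was the symbol left out. All 67 members were among the 14746 genes tested, and no member had 0 counts in any library.

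Guidance cues steer the growing axon by attracting or repelling its tip. Semaphorins act through plexins, and most secreted class 3 semaphorins need a neuropilin as co-receptor. Ephrins are bound to the membrane and signal to Eph receptor tyrosine kinases on touching cells, in both directions. Slits repel through Robo receptors, whereas netrin-1 attracts through Dcc and repels through Unc5 receptors. In the adult brain these genes remain active in neurons, in oligodendrocyte lineage cells and in vessels, where they are known for roles at synapses, in myelinating cells and in the endothelium.

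RNA came from the brains of male C57BL/6J mice aged 8 to 10 weeks, 3 mice in each of 3 groups, on day 2. All mice had cerebral venous sinus thrombosis (CVST), produced by ferric chloride applied to the superior sagittal sinus. The CVST+Ligation mice also had their deep cervical lymph nodes ligated, which obstructs the outflow of the meningeal lymphatic vessels, and the 4-PBA mice had thrombosis and ligation together with 4-phenylbutyric acid, an inhibitor of endoplasmic reticulum stress, at 100 mg/kg into the peritoneum. The methods place the injection 30 min before modelling, whereas the series description places it after ligation. Sham libraries and 4-PBA without ligation were not analysed here, so the thrombosis itself had no comparison, and nothing was said in the sources about vehicle in the sequenced mice beyond solvent for control mice.

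Library totals ran from 18100739 to 25091498 counts, so that 3 counts equalled 0.114 to 0.163 CPM, the count scaled to the size of its library by the TMM method. The labels gave the tissue as brain and the series description as cortex. Sums over marker lists moved with the groups. The 8 cortical excitatory genes summed to 1942 to 2427 CPM in CVST, 556 to 1780 in CVST+Ligation and 668 to 980 in 4-PBA, and the 8 striatal genes to 403 to 1112, 128 to 204 and 113 to 549. In the opposite direction, the 8 thalamic genes summed to 60.6 to 95.8, 214 to 793 and 435 to 749 CPM, and the 12 midbrain dopamine genes to 86.3 to 179, 371 to 559 and 407 to 498, with 2 of the 12 at 0 counts in every CVST library. The 4-PBA libraries stood apart in the 10 hypothalamic genes, which summed to 5.19 to 43.0 CPM in CVST, 12.7 to 57.1 in CVST+Ligation and 301 to 581 in 4-PBA, with 6 of the 8 genes tested higher in 4-PBA than in either other group. The 7 choroid plexus genes summed to 794 to 987 CPM in CVST, 18.1 to 863 in CVST+Ligation and 446 to 3145 in 4-PBA. The library CVST+Ligation 2 stood apart with 1392 CPM of the 9 cerebellar genes, against 26.4 to 74.2 in the other libraries, and with 250.05 CPM of the 12 midbrain and brainstem genes, against 3.36 to 21.8. The 6 oligodendrocyte genes summed to 2511 to 3303 CPM in CVST, 2557 to 5752 in CVST+Ligation and 4443 to 7214 in 4-PBA, and the 7 endothelial genes to 195 to 328, 241 to 376 and 275 to 316. In tissue of this kind, fewer cells of a type, less RNA per cell and a different share of brain regions in the sample cannot be told apart. The part of these lists in the results on the guidance genes was not tested.

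**Figure D1:**
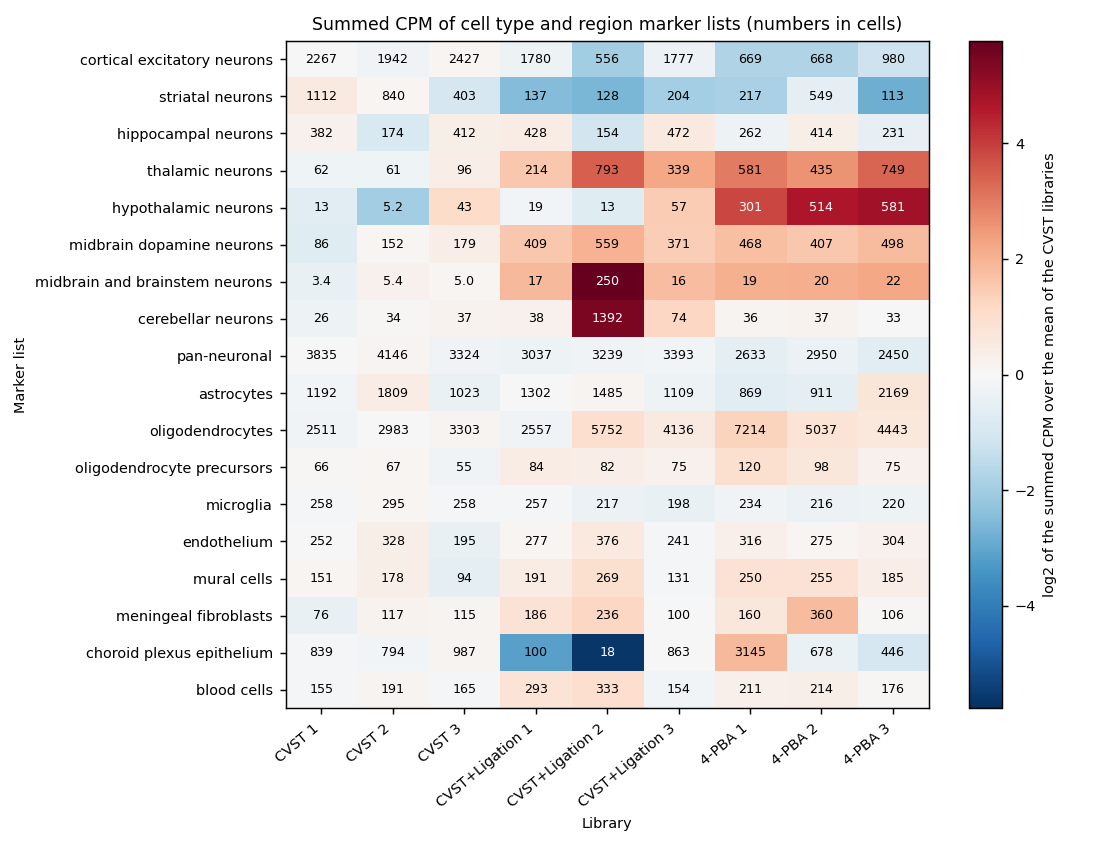
Summed CPM of 18 marker lists (vertical axis) in the 9 libraries (horizontal axis); numbers are sums in CPM and colours the log2 of each sum over the mean of the CVST libraries. The cortical list goes from 1942 to 2427 CPM in CVST to 668 to 980 in 4-PBA, and the cerebellar list reaches 1392 CPM in CVST+Ligation 2.

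The levels of the members were compared per length, as FPKM over all 9 libraries. Sema7a, a semaphorin anchored to the membrane by a lipid, had the highest mean at 82.9 FPKM, followed by Efnb3 at 66.2, Efna3 at 51.4 and Ephb6 at 47.3. This order differed by group, since in 4-PBA Efnb3 stood at 88.0 ± 31.3 FPKM (SD, n = 3) and Sema7a at 63.0 ± 17.7, and Ephb6 was first of the Eph receptors in CVST, at 77.0 against 35.4 FPKM for Epha4, and below Epha4 and Epha7 in 4-PBA, at 28.7 against 30.6 and 29.7. The lowest was Epha1 at 0.530 FPKM. Among families, the plexins and neuropilin had the highest median at 13.7 FPKM and the netrins the lowest at 3.41. The highest plexin or neuropilin over all libraries was Nrp1, the co-receptor of Sema3a, at 20.4 FPKM, followed by Plxnb2 at 19.2, and the ranges of the 9 libraries of these neighbours overlapped. In CVST alone Plxnd1 was first, at 20.3 FPKM, and Plxnb2 and Nrp1 were both at 17.7. Slit1 led the Slits at 24.5, Robo2 the Robos at 19.4, Ntn4 the netrins at 4.66, although in CVST Ntn5 was at 4.29 and Ntn4 at 3.79, and Unc5a the netrin receptors at 34.7 FPKM. The lengths behind the deposited FPKM were shorter than the annotated exons for all 67 members, so the order between genes depends on them.

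**Figure D2:**
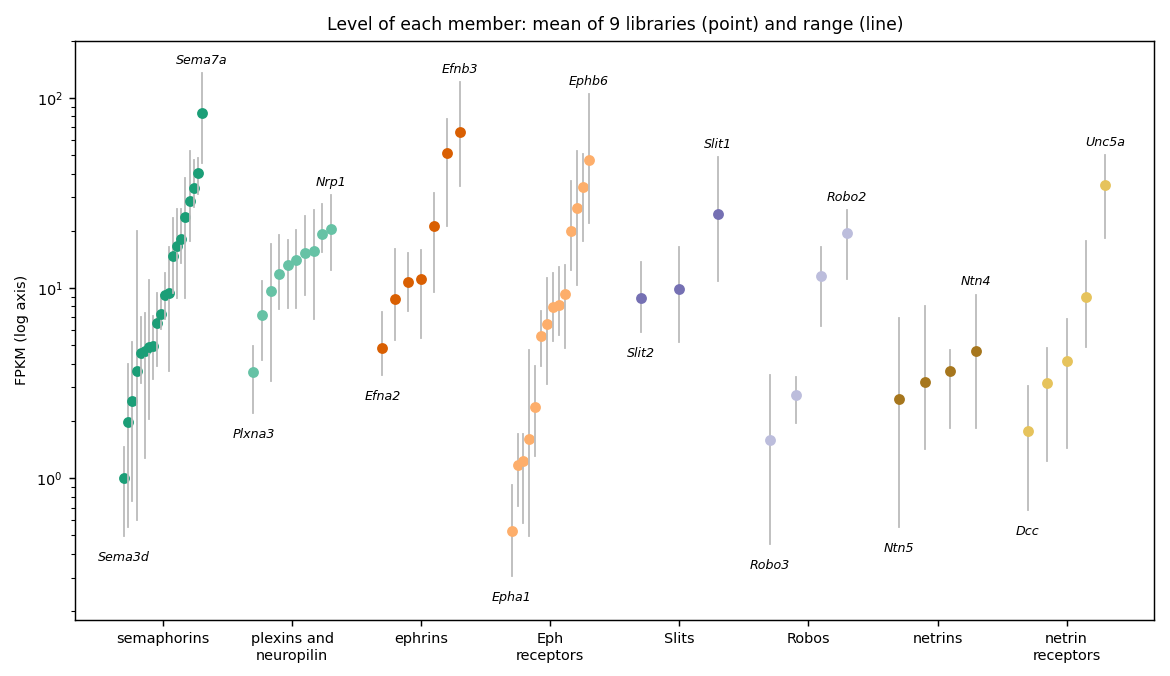
FPKM of each of the 67 members (vertical log axis) by family (horizontal axis); points are means of 9 libraries and lines the range, with the highest and lowest member of each family named. Levels run from 0.530 FPKM for Epha1 to 82.9 for Sema7a.

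The first comparison asked what ligation added to thrombosis. Robo1, Sema4g, Sema6d, Sema3d, Sema6a, Ntn1, Dcc, Epha8, Plxna3 and Plxnb1 were higher in CVST+Ligation than in CVST at an unadjusted p below 0.05, the threshold at which a member is said here to be called, and Robo3, Ephb6, Ephb3 and Sema4a were lower. Thus 10 of 67 members (14.9%) were higher and 4 (5.97%) lower, beside 5.47% and 4.18% of all genes tested. The median log2 fold change of the members was 0.27, against 0.00 over all genes, and 44 of 67 values were above 0, against 50.3% of all genes. This median was 0.13 without CVST 3, 0.18 without CVST+Ligation 2, 0.15 with a correction for gene length and 0.089 with that correction and a replicate block. No member passed an adjusted p of 0.05 in edgeR, where 0.0203% of all genes did, and the lowest adjusted p was 0.298 for Robo3, whereas DESeq2 called 2 members after adjustment, Robo3 and Ephb6, or 2.99% beside 1.79% of all genes. The CVST+Ligation libraries lay entirely above those of CVST for 8 members and below for 3, beside 6.61% and 7.21% of all genes. The 3 mice of a group were separate animals. With 3 mice against 3, an exact permutation test cannot go below p = 0.1.

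The median coefficient of variation of the members was above that of all genes in each group. It was 25.7% in CVST, 36.3% in CVST+Ligation and 22.8% in 4-PBA, against 20%, 18.6% and 13.9% for all genes. The highest of the 9 values fell in CVST+Ligation 2 for 15 members (22.4%, against 17.3% of all genes), in CVST+Ligation 1 for 14 (20.9%, against 11.7%) and in 4-PBA 1 for 11 (16.4%, against 9.02%). It fell in CVST 3 for 3 members (4.48%, against 21.3% of all genes). Without CVST+Ligation 2, 12 members were called, 10 higher and 2 lower, or 17.9% beside 8.07% of all genes, whereas all libraries gave 20.9% beside 9.64%. Robo1, Robo3, Ephb6, Sema4g, Sema3d and Dcc were called in both cases. Of these 2 fits, only the one without that library called Epha5, Epha6, Nrp1, Plxnc1, Slit1 and Slit3. Among other settings, Plxnc1 was also called in DESeq2, and Epha6 and Slit1 without CVST 3. Members were also long, with a median recovered length of 2964 bases against 1479 for all genes tested. With the fit corrected for gene length, 11 members were called, or 16.4% beside 9.83% of all genes.

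The second comparison asked what 4-PBA added in ligated mice. Ephb3 and Ntn5 were lower in 4-PBA than in CVST+Ligation, and Sema3b was higher. These 3 of 67 members made 1.49% higher and 2.99% lower, beside 1.81% and 1.42% of all genes tested. No member and 0% of all genes passed an adjusted p of 0.05 in edgeR, and DESeq2 likewise called no member after adjustment, beside 0.149% of all genes, and 4 at an unadjusted p, or 5.97% beside 3.87%. The median log2 fold change was -0.07, against -0.02 over all genes, and it was 0.058 without CVST+Ligation 1 and -0.14 without 4-PBA 1. No member lay entirely above the CVST+Ligation libraries, beside 3.51% of all genes, and 4 lay entirely below (Ephb2, Ephb3, Sema4f and Sema5b), beside 4.22%. Without CVST+Ligation 2 the count was 12, 6 higher and 6 lower, or 17.9% beside 10% of all genes. Without 4-PBA 2 it was 1, or 1.49% beside 1.72%. The hypothalamic sums of the 4-PBA libraries all lay above those of the other 6 libraries, and their part in the comparisons with 4-PBA was not tested.

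The third comparison set the treated, ligated mice against thrombosis alone. Sema4g, Sema6d, Sema3d, Sema6a, Sema3g, Sema3b, Plxna3, Plxnb1, Plxnb3, Efnb3, Robo1, Dcc and Unc5c were higher in 4-PBA than in CVST, and Ephb3, Ephb6, Robo3, Ntn5, Sema4a and Sema5b were lower. The 13 higher members made 19.4% and the 6 lower members 8.96% of 67, beside 8.07% and 7.33% of all genes. The median log2 fold change was 0.15, against -0.01 over all genes. It was 0.086 with the gene length correction, 0.096 without CVST 3, and 0.24, 0.28 and 0.28 without CVST 2, 4-PBA 2 and 4-PBA 3. No member passed an adjusted p of 0.05 in edgeR, where 0.122% of all genes did, and the lowest adjusted p was 0.0518 for Ephb3. DESeq2 called 12 members after adjustment, or 17.9% beside 5.8% of all genes. Without CVST+Ligation 2, which belongs to neither group compared but enters the shared estimate of the spread, the scaling and the filter on low counts, 29 members were called, or 43.3% beside 19.1% of all genes, and Ephb3, Robo3, Plxnb3, Sema4a and Ephb6 passed an adjusted p of 0.05, or 7.46% beside 3.62% of all genes. The libraries of 4-PBA lay entirely above CVST for 17 members and below for 7, beside 12.3% and 11.5% of all genes. The first comparison uses the same CVST libraries.

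**Figure D3:**
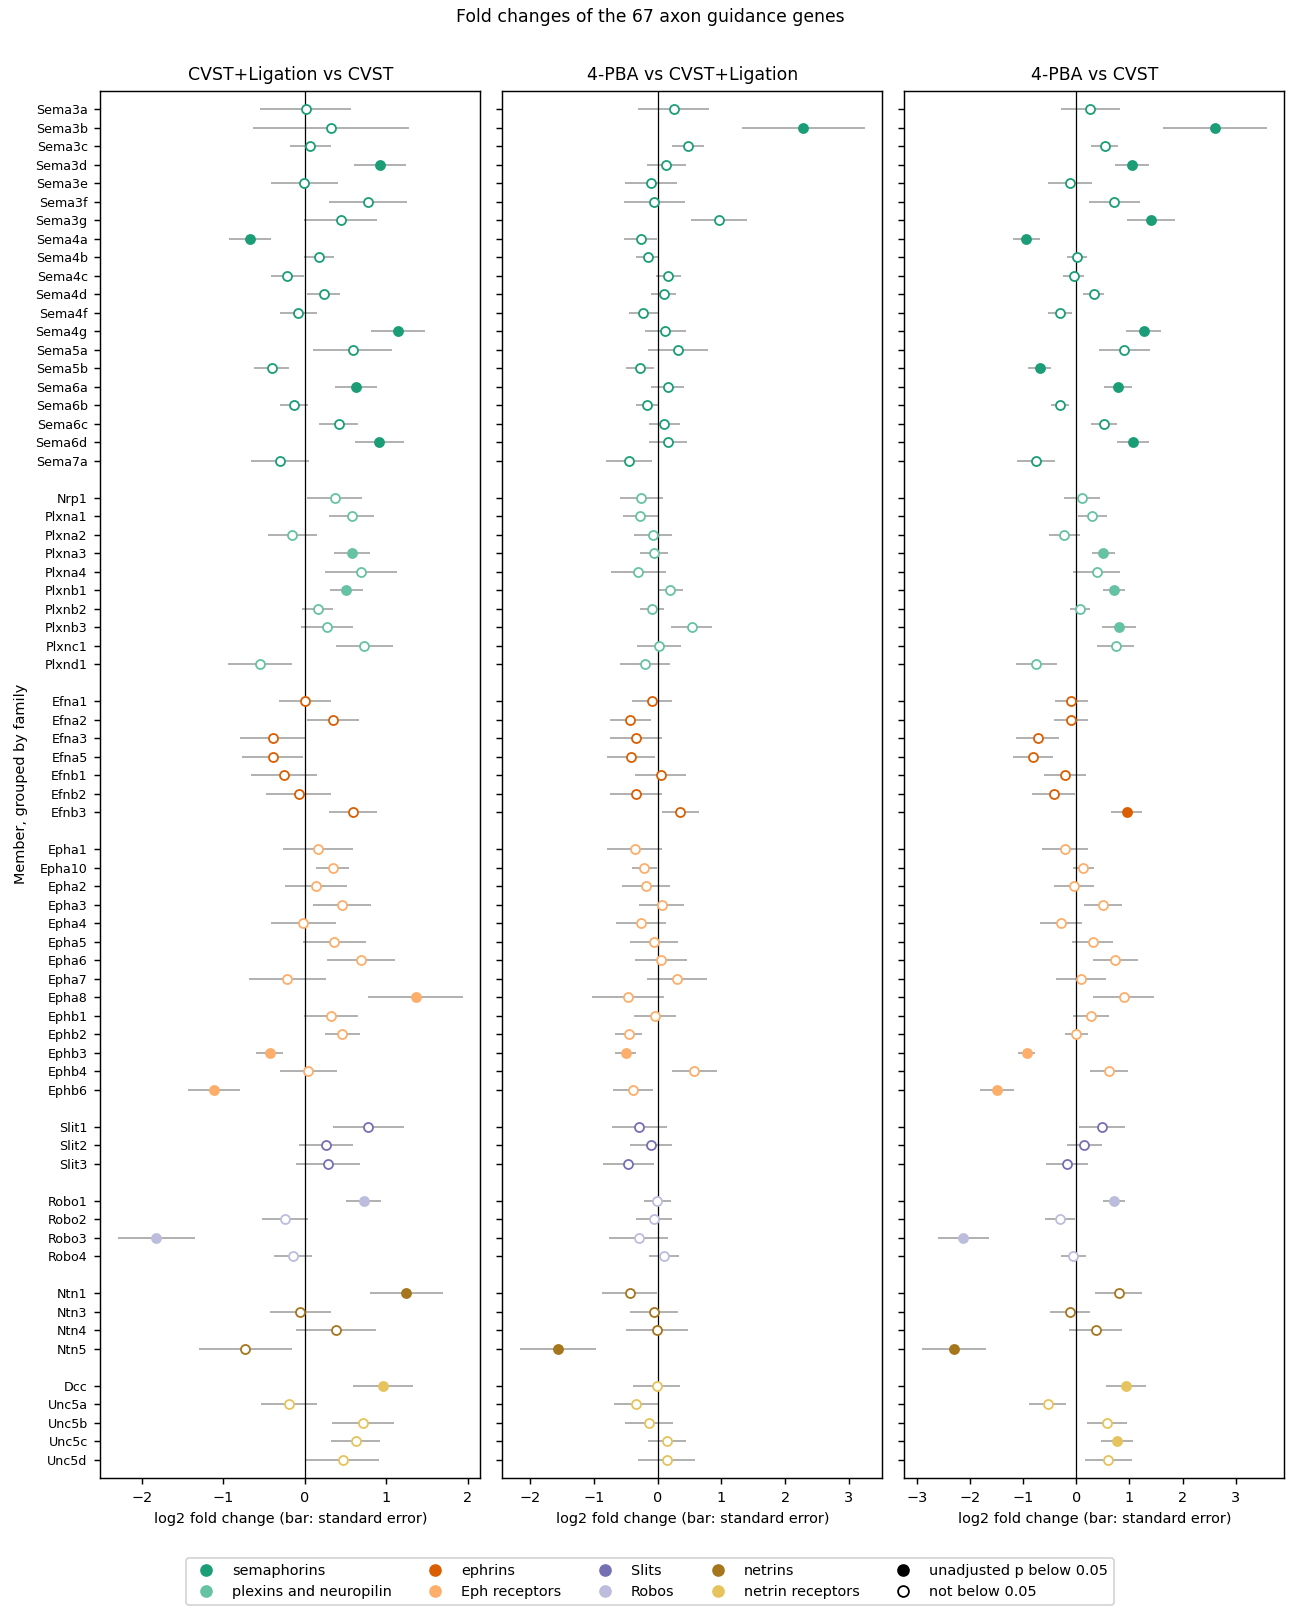
Log2 fold changes (horizontal axis, bars are standard errors) of the 67 members (vertical axis, coloured by family) in the 3 comparisons; filled points had an unadjusted p below 0.05. In CVST+Ligation vs CVST, 10 points are filled above 0 and 4 below, in 4-PBA vs CVST+Ligation 1 and 2, and in 4-PBA vs CVST 13 and 6.

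Robo3, Ephb6, Sema4g and Robo1 are shown first with their promoters, because they had the smallest p in the first comparison. The sequences are the RefSeq promoters on GRCm38.p6, 250 bases before to 50 after the annotated start, written 5′ to 3′ on the strand of the gene. Capitals mark the letters of 4 motifs searched on both strands, the GC box (GGGCGG), the CCAAT box (CCAAT), the TATA box (TATAAA) and the cyclic AMP response element (TGACGTCA). Robo3 lies at chr9:37433126-37433425 on the minus strand, Ephb6 at chr6:41605261-41605560, Sema4g at chr19:44989094-44989393 and Robo1 at chr16:72662899-72663198, all 3 on the plus strand. The start used for Robo1, the only one in the table, lies 354843 bases inside the gene as GENCODE M21 annotates it, so this is an internal start, whereas the other 3 lie 29 to 243 bases from the annotated gene start.
Robo3: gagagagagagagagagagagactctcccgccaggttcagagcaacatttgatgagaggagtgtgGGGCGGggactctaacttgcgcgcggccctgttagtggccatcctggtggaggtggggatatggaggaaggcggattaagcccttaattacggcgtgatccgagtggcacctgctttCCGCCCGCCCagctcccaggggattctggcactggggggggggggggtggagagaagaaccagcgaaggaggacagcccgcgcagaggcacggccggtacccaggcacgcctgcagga
Ephb6: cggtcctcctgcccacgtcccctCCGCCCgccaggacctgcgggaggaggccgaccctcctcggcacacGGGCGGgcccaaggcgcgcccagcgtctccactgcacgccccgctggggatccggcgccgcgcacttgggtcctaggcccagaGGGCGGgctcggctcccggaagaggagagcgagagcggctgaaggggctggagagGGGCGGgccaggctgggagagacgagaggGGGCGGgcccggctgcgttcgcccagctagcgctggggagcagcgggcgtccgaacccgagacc
Sema4g: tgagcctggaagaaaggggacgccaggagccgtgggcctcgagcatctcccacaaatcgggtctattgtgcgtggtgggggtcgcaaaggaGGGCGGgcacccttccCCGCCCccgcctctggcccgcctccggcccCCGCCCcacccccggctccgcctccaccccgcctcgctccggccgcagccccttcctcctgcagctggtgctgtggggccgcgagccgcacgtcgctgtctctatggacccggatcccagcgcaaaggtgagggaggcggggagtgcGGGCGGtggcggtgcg
Robo1: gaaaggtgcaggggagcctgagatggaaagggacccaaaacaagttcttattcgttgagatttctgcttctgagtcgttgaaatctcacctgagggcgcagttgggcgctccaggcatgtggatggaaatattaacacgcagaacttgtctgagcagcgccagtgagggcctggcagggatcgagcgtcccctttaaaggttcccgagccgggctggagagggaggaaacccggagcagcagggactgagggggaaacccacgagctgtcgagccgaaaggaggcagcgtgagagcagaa

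Every capital letter belongs to a GC box. Robo3 held 3 matches, of which 2 overlap by 2 bases, Ephb6 held 5 and Sema4g 4, whereas the window at the internal start of Robo1 held no match of any of the 4 motifs. The GC content was 76.3% for Ephb6, 73.3% for Sema4g, 63.3% for Robo3 and 57% for Robo1. A RefSeq promoter was matched for 57 of the 67 members, 73 promoters in all, because some genes have several starts. A GC box stood in 71.2% of these, against 35.7% of all 32851 promoters, a CCAAT box in 27.4% against 37.4%, a TATA box in 2.74% against 13.6% and the cyclic AMP response element in 1.37% against 1.79%. The 32851 promoters were not limited to genes tested here, whereas all members were tested, and shares for the tested genes were not computed. The GC box thus stood in the promoters of Robo3 and Ephb6, both lower in CVST+Ligation, and in that of Sema4g, which was higher.

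Among the Robos, the receptors for Slits, Robo1 and Robo3 stood on opposite sides. Robo3, a divergent Robo best known for letting commissural axons cross the midline, was at 15.9, 14.9 and 11.7 CPM in CVST, 6.03, 2.27 and 3.65 in CVST+Ligation and 2.00, 1.98 and 5.68 in 4-PBA. All 6 libraries of the ligated groups, CVST+Ligation and 4-PBA, lay below the 3 CVST libraries. The mean was 14.2 ± 2.18 CPM (SD, n = 3) in CVST and 3.98 ± 1.91 in CVST+Ligation, and the log2 fold change between them was -1.83 (SE 0.47, adjusted p = 0.298). Between 4-PBA and CVST it was -2.13 (SE 0.48, adjusted p = 0.0854). Robo1, which mediates Slit repulsion, was at 50.7, 36.7 and 33.5 CPM in CVST, 79.6, 64.4 and 55.3 in CVST+Ligation and 81.0, 59.9 and 57.3 in 4-PBA. Its 6 ligated libraries all lay above CVST, with a log2 fold change of 0.72 (SE 0.21, adjusted p = 0.339) for CVST+Ligation vs CVST and 0.71 (SE 0.21, adjusted p = 0.159) for 4-PBA vs CVST. Between 4-PBA and CVST+Ligation the difference was -0.01 (SE 0.21, adjusted p = 1). Robo3 and Robo1 were called in both comparisons with CVST under each of 21 alternative settings.

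Robo2, the Robo with the highest level, was at 114, 121 and 76.7 CPM in CVST, 113, 51.3 and 100.001 in CVST+Ligation and 90.9, 89.5 and 72.1 in 4-PBA, and its groups overlapped in all comparisons. Robo4, an endothelial Robo, had a log2 fold change of -0.15 in CVST+Ligation vs CVST, and its groups overlapped too. None of the 3 Slits was called in any comparison of all libraries. Slit1 was at 77.6, 50.4 and 120.0 CPM in CVST, 224, 60.3 and 139.8 in CVST+Ligation and 135, 107 and 105 in 4-PBA, with a log2 fold change of 0.78 (SE 0.43, adjusted p = 0.593) for CVST+Ligation vs CVST. Its lowest ligated value was that of CVST+Ligation 2, and without that library the log2 fold change was 1.14 (SE 0.33, adjusted p = 0.418). Slit2 and Slit3 gave 0.26 and 0.29 with all libraries. Without CVST+Ligation 2, Slit3 was called in CVST+Ligation vs CVST, at 0.65 (SE 0.27, adjusted p = 0.593). It was then also called in 4-PBA vs CVST+Ligation, at -0.81 (SE 0.27, adjusted p = 0.401). Beside the Robo results, the cortical list was at 2267, 1942 and 2427 CPM in CVST, 1780, 556 and 1777 in CVST+Ligation and 669, 668 and 980 in 4-PBA. Its part in them was not tested.

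Of the 14 Eph receptors, 2 were lower and 1 higher in CVST+Ligation than in CVST, beside 4.18% and 5.47% of all genes. Ephb6, an Eph receptor without kinase activity, was at 328, 224 and 168 CPM in CVST, 112, 74.9 and 146 in CVST+Ligation and 65.7, 76.0 and 113 in 4-PBA. The groups did not overlap, and the log2 fold change was -1.11 (SE 0.32, adjusted p = 0.32). It was -1.50 (SE 0.32, adjusted p = 0.073) in 4-PBA vs CVST and -0.39 (SE 0.31, adjusted p = 1) in 4-PBA vs CVST+Ligation, where the groups overlapped. Ephb6 was called in both comparisons with CVST under all 21 settings.

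Ephb3, a kinase-active receptor of B-type ephrins, was the only member called in all 3 comparisons. It was at 32.5, 35.9 and 26.5 CPM in CVST, 24.1, 20.7 and 25.5 in CVST+Ligation and 15.4, 17.8 and 16.4 in 4-PBA. The 3 groups stood in order without overlap, CVST highest and 4-PBA lowest. The log2 fold change was -0.43 (SE 0.16, adjusted p = 0.436) for CVST+Ligation vs CVST, -0.50 (SE 0.17, adjusted p = 1) for 4-PBA vs CVST+Ligation and -0.93 (SE 0.17, adjusted p = 0.0518) for 4-PBA vs CVST. The adjusted p of the last was 0.0518, and it ended below 0.05 in DESeq2, when all genes with a count were tested, when only the 2 groups compared entered the fit, when the fit was corrected for gene length, and without CVST 3 or CVST+Ligation 2, but in none of the other settings. The first call was missed in 7 of 21 settings, among them those without CVST 1, CVST 2 or CVST+Ligation 2, and the second in 1, without 4-PBA 1.

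Epha8, a receptor of A-type ephrins, was at 3.44, 2.84 and 1.57 CPM in CVST, 3.26, 13.8 and 3.25 in CVST+Ligation and 5.47, 3.53 and 5.64 in 4-PBA. The log2 fold change of 1.36 (SE 0.58, adjusted p = 0.502) in CVST+Ligation vs CVST rested on CVST+Ligation 2, the other 2 ligated libraries lying within the CVST range, and without that library it was not called. It was missed in 11 of 21 settings, also without CVST 2, CVST 3, 4-PBA 1 or 4-PBA 3. The same library held the highest value of Ephb1, at 107 CPM against 39.5 to 68.7 elsewhere, and the lowest value of Epha4, at 51.0 CPM, Epha5 at 15.0 and Epha7 at 31.4. The cerebellar list in it was at 1392 CPM, with no list gene at 0 in the group, and its part in these values was not tested. The 11 Eph receptors not called in CVST+Ligation vs CVST had log2 fold changes from -0.22 for Epha7 to 0.69 for Epha6. Ephb2 was nearest to the threshold, at 0.46 (SE 0.22, adjusted p = 0.534), and in 4-PBA it was lower than in each CVST+Ligation library, at -0.46 (SE 0.22, adjusted p = 1).

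Of the 7 ephrins, none was called in CVST+Ligation vs CVST or in 4-PBA vs CVST+Ligation, beside 5.47% of all genes higher and 4.18% lower in the first and 1.81% and 1.42% in the second. Efnb3 was higher in 4-PBA than in CVST, 1 of 7 beside 8.07% of all genes. Efnb3, a ligand of B-type Eph receptors known as a midline barrier to axons, was at 37.1, 35.3 and 64.4 CPM in CVST, 73.1, 60.1 and 72.9 in CVST+Ligation and 121, 85.5 and 57.3 in 4-PBA. The log2 fold change was 0.95 (SE 0.30, adjusted p = 0.179), although 4-PBA 3 lay below CVST 3. In CVST+Ligation vs CVST it was 0.59 (SE 0.30, adjusted p = 0.554). The other 6 ephrins were between -0.82 for Efna5 and -0.09 for Efna1 in 4-PBA vs CVST, all below 0 and none called. Oligodendrocyte markers were at 2511, 2983 and 3303 CPM in CVST and 7214, 5037 and 4443 in 4-PBA. Their part in the result was not tested.

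Of the 20 semaphorins, 4 were higher and 1 lower in CVST+Ligation than in CVST, beside 5.47% and 4.18% of all genes. Sema4g, a transmembrane semaphorin, was at 9.48, 10.9 and 17.2 CPM in CVST, 25.1, 38.3 and 19.6 in CVST+Ligation and 40.4, 28.3 and 21.7 in 4-PBA. All ligated libraries lay above CVST, with a log2 fold change of 1.15 (SE 0.33, adjusted p = 0.322) for CVST+Ligation vs CVST and 1.27 (SE 0.33, adjusted p = 0.122) for 4-PBA vs CVST, and both were called under all 21 settings. Sema6d, a transmembrane ligand of class A plexins, was at 59.7, 47.8 and 30.2 CPM in CVST, 73.2, 120.3 and 66.1 in CVST+Ligation and 118, 96.0 and 74.5 in 4-PBA. Its groups did not overlap between CVST+Ligation and CVST, with a log2 fold change of 0.91 (SE 0.30, adjusted p = 0.396). Without CVST+Ligation 2, which held its highest value, this was not called. The 4-PBA libraries gave 1.07 (SE 0.30, adjusted p = 0.143) against CVST, called under all settings.

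Sema6a, which also binds class A plexins, was at 30.7, 36.5 and 31.4 CPM in CVST, 35.7, 69.5 and 46.9 in CVST+Ligation and 73.0, 52.9 and 43.2 in 4-PBA. CVST+Ligation overlapped CVST, and the log2 fold change of 0.63 (SE 0.26, adjusted p = 0.493) was missed in 10 of 21 settings: without CVST 1, CVST 3, CVST+Ligation 2, CVST+Ligation 3 or 4-PBA 2, without CVST+Ligation 2 and 4-PBA 2 together, with the gene length correction, alone or with the replicate block, and in both limma fits. In 4-PBA, all libraries lay above CVST, at 0.78 (SE 0.26, adjusted p = 0.202), missed without 4-PBA 1. The oligodendrocyte list was at 2511, 2983 and 3303 CPM in CVST, 2557, 5752 and 4136 in CVST+Ligation and 7214, 5037 and 4443 in 4-PBA. Its part in the Sema6a result was not tested. Sema3d, a secreted semaphorin, was low, at 1.78, 1.29 and 1.25 CPM in CVST, 2.77, 2.16 and 3.25 in CVST+Ligation and 2.44, 3.20 and 3.35 in 4-PBA. The groups did not overlap, with a log2 fold change of 0.92 (SE 0.32, adjusted p = 0.415), which missed without CVST 2, CVST 3 or CVST+Ligation 3. Between 4-PBA and CVST it was 1.05 (SE 0.32, adjusted p = 0.163).

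Sema4a, a transmembrane semaphorin with known roles in immune cells, was at 127, 69.9 and 89.4 CPM in CVST, 63.6, 40.5 and 75.9 in CVST+Ligation and 46.2, 52.0 and 51.4 in 4-PBA. CVST+Ligation overlapped CVST, with a log2 fold change of -0.67 (SE 0.26, adjusted p = 0.449), and it was missed in 4 of 21 settings, among them those without CVST 1 or CVST+Ligation 2. The 3 libraries of 4-PBA all lay below CVST, at -0.94 (SE 0.26, adjusted p = 0.135). Sema5b, a transmembrane semaphorin with thrombospondin repeats, was at 24.4, 14.6 and 19.6 CPM in CVST, 13.8, 13.2 and 17.2 in CVST+Ligation and 12.8, 10.6 and 12.99 in 4-PBA. It was lower in 4-PBA than in CVST at -0.69 (SE 0.22, adjusted p = 0.182), missed without CVST 1, whereas CVST+Ligation vs CVST gave -0.41 (SE 0.22, adjusted p = 0.579). Sema7a, the member with the highest mean FPKM over all 9 libraries, was at 239, 269.7 and 109 CPM in CVST, 121, 236 and 144 in CVST+Ligation and 124, 89.6 and 154 in 4-PBA. Its 3 groups overlapped, and the log2 fold change was -0.30 (SE 0.36, adjusted p = 0.797) for CVST+Ligation vs CVST and -0.75 (SE 0.36, adjusted p = 0.355) for 4-PBA vs CVST.

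The class 3 semaphorins Sema3b and Sema3g were higher in 4-PBA than in CVST. Sema3b, a secreted repellent, was at 3.23, 3.33 and 2.22 CPM in CVST, 2.64, 6.08 and 2.33 in CVST+Ligation and 8.02, 44.4 and 1.30 in 4-PBA. The value in 4-PBA 2 was far above the others, and 4-PBA 3 was the lowest of all 9 libraries. The log2 fold change was 2.29 (SE 0.97, adjusted p = 1) for 4-PBA vs CVST+Ligation and 2.61 (SE 0.98, adjusted p = 0.244) for 4-PBA vs CVST, and neither was called without 4-PBA 2 or without any 1 of the CVST libraries. They were missed in 12 and 9 of 21 settings. The 7 meningeal fibroblast genes summed to 360 CPM in that library, against 76.2 to 236 in the other libraries, and their part in the result was not tested. Sema3g, a secreted semaphorin known from endothelium, was at 3.02, 3.77 and 1.36 CPM in CVST, 3.18, 5.72 and 2.24 in CVST+Ligation and 5.64, 9.21 and 6.74 in 4-PBA. All 4-PBA libraries lay above CVST, at 1.40 (SE 0.45, adjusted p = 0.185), and 4-PBA 1 lay just below CVST+Ligation 2, at 0.96 (SE 0.44, adjusted p = 1) for 4-PBA vs CVST+Ligation. The endothelial list was at 252, 328 and 195 CPM in CVST, 277, 376 and 241 in CVST+Ligation and 316, 275 and 304 in 4-PBA.

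Among the 10 plexins and neuropilin, Plxna3 and Plxnb1 were higher in CVST+Ligation than in CVST, beside 5.47% of all genes. Plxnb1, the receptor of Sema4d, was at 51.2, 78.0 and 68.8 CPM in CVST, 91.4, 111 and 78.8 in CVST+Ligation and 126, 109 and 87.8 in 4-PBA. The groups did not overlap, with a log2 fold change of 0.51 (SE 0.20, adjusted p = 0.468) for CVST+Ligation vs CVST and 0.71 (SE 0.20, adjusted p = 0.147) for 4-PBA vs CVST. The latter was called under all 21 settings, and the former was missed in 7, among them those without CVST 1, CVST 3, CVST+Ligation 1 or CVST+Ligation 2 and with the gene length correction. Plxna3, which mediates the signal of secreted semaphorins, was at 15.3, 12.3 and 19.0 CPM in CVST, 23.6, 26.9 and 19.0 in CVST+Ligation and 26.7, 20.7 and 19.2 in 4-PBA. CVST+Ligation 3 lay just below CVST 3, and the log2 fold change was 0.58 (SE 0.22, adjusted p = 0.436), missed in 7 of 21 settings, among them those without CVST 1, CVST 2, CVST+Ligation 1 or CVST+Ligation 2 and with the gene length correction. All 4-PBA libraries lay above CVST, at 0.51 (SE 0.22, adjusted p = 0.303), a call missed in 10 of 21 settings, among them those without CVST 1, CVST 2, CVST+Ligation 1, 4-PBA 1 or 4-PBA 2, with the replicate block and with the gene length correction.

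Plxnb3, a plexin of oligodendrocytes, was at 25.1, 36.3 and 31.2 CPM in CVST, 23.9, 60.2 and 27.8 in CVST+Ligation and 59.1, 46.5 and 56.1 in 4-PBA. Its CVST+Ligation 2 value was as high as those of 4-PBA. The log2 fold change was 0.80 (SE 0.32, adjusted p = 0.272) for 4-PBA vs CVST and 0.53 (SE 0.32, adjusted p = 1) for 4-PBA vs CVST+Ligation, and without CVST+Ligation 2 the latter was 1.07 (SE 0.20, adjusted p = 0.268). The former was missed without CVST 1, CVST 3, 4-PBA 1 or 4-PBA 3 and with the gene length correction. The oligodendrocyte list was at 2557, 5752 and 4136 CPM in CVST+Ligation, highest in the same library, and its part in the result was not tested. Nrp1 was at 51.0, 34.6 and 65.97 CPM in CVST, 85.0, 36.1 and 74.1 in CVST+Ligation and 50.3, 43.5 and 69.7 in 4-PBA, and its groups overlapped. Plxna1, a receptor of class 3 and class 6 semaphorins, lay above CVST in every CVST+Ligation library, at 0.57 (SE 0.28, adjusted p = 0.545), without being called. Plxnd1, the receptor of Sema3e, had the lowest log2 fold change of the family, -0.55 (SE 0.39, adjusted p = 0.674).

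Among the 4 netrins, Ntn1 was higher in CVST+Ligation than in CVST and none was lower, beside 5.47% and 4.18% of all genes. Ntn1, the prototype attractant, was at 4.55, 2.79 and 2.71 CPM in CVST, 4.34, 14.2 and 5.36 in CVST+Ligation and 5.64, 6.73 and 5.22 in 4-PBA. The CVST+Ligation 2 value was far above the others and CVST+Ligation 1 lay within the CVST range. The log2 fold change was 1.24 (SE 0.44, adjusted p = 0.419), and without that library it was 0.53 and not called. It was also missed without CVST 2 or CVST 3. Ntn5, another netrin, was at 2.63, 11.2 and 7.21 CPM in CVST, 6.24, 2.22 and 4.18 in CVST+Ligation and 0.867, 1.09 and 2.25 in 4-PBA. All 4-PBA libraries lay below CVST, at -2.30 (SE 0.61, adjusted p = 0.122), and 4-PBA vs CVST+Ligation gave -1.57 (SE 0.60, adjusted p = 1), with 4-PBA 3 just above CVST+Ligation 2, and was missed without CVST+Ligation 1, 4-PBA 1 or 4-PBA 2 and in limma on log2(FPKM + 1). Ntn5 shares 519 exonic bases, 23.4% of its exons, with Sec1 on the opposite strand, so its count is uncertain where the counting did not use strand. Ntn4, the netrin with the highest mean FPKM over all 9 libraries, was at 6.97, 11.2 and 3.63 CPM in CVST, 5.70, 16.9 and 5.85 in CVST+Ligation and 11.2, 9.05 and 7.93 in 4-PBA, and its groups overlapped.

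Of the 5 netrin receptors, Dcc, the attractive receptor of Ntn1, was higher in CVST+Ligation than in CVST, beside 5.47% of all genes. It was at 4.84, 6.21 and 3.09 CPM in CVST, 12.9, 7.32 and 7.30 in CVST+Ligation and 13.1, 7.62 and 6.55 in 4-PBA. The 6 ligated libraries all lay above CVST, with a log2 fold change of 0.96 (SE 0.37, adjusted p = 0.452) for CVST+Ligation vs CVST and 0.94 (SE 0.37, adjusted p = 0.267) for 4-PBA vs CVST. The first was missed without CVST 1, CVST 3 or CVST+Ligation 1, and the second without CVST 1, CVST 3 or 4-PBA 1. Unc5c, a repulsive netrin receptor, was at 8.37, 7.05 and 3.69 CPM in CVST, 10.3, 9.43 and 9.76 in CVST+Ligation and 13.6, 8.46 and 10.6 in 4-PBA. It lay above CVST in all 6 ligated libraries, at 0.62 (SE 0.30, adjusted p = 0.548) for CVST+Ligation vs CVST and 0.77 (SE 0.30, adjusted p = 0.266) for 4-PBA vs CVST. Only the latter was called, and it was missed without CVST 3, 4-PBA 1 or 4-PBA 3 and with only the 2 groups compared in the fit. Thus 2 of the 5 netrin receptors, Dcc and Unc5c, were higher in 4-PBA than in CVST, beside 8.07% of all genes. Unc5a, the netrin receptor with the highest level, was at 98.2, 96.1 and 139.6 CPM in CVST, 135, 48.5 and 108 in CVST+Ligation and 99.3, 71.8 and 58.9 in 4-PBA, and its groups overlapped. The midbrain dopamine list was at 86.3, 152 and 179 CPM in CVST, 409, 559 and 371 in CVST+Ligation and 468, 407 and 498 in 4-PBA. Its part in the netrin receptor values was not tested.

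**Figure D4:**
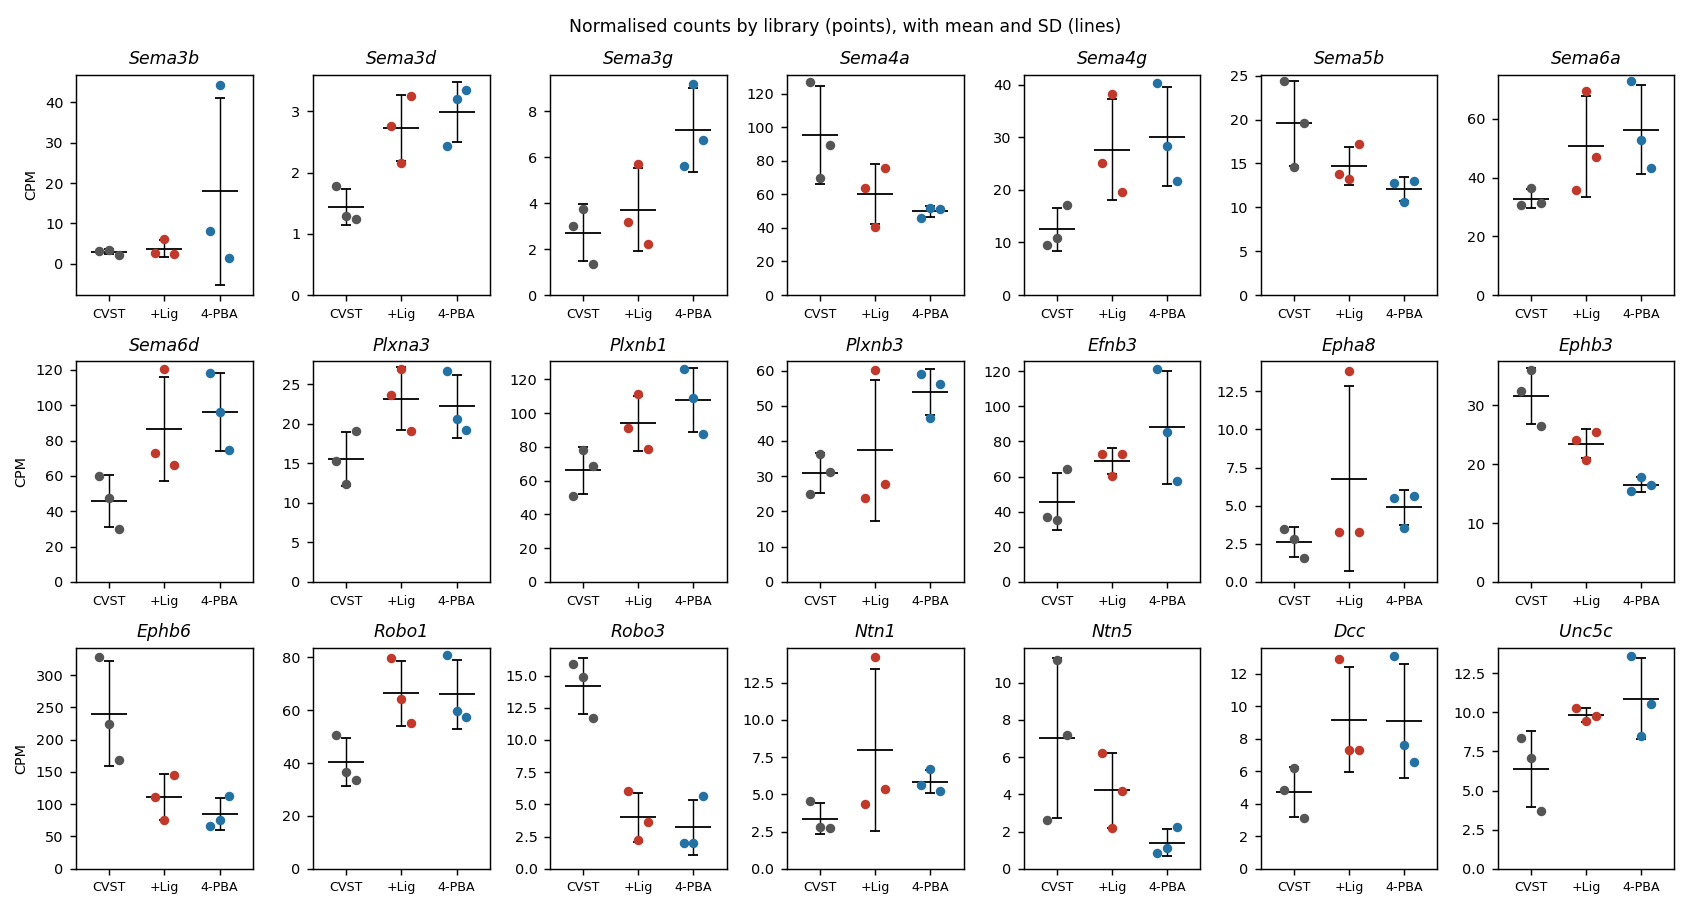
Normalised counts (vertical axis, CPM) of the 21 members called in at least 1 comparison, by group (horizontal axis; +Lig is CVST+Ligation); points are libraries, and lines the mean and SD of 3. The 6 ligated libraries of Robo3 lie below CVST and those of Robo1 above it, while Ntn1, Epha8 and Sema3b each rest on 1 high library.

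The remaining members were not called in CVST+Ligation vs CVST. The 15 such semaphorins had log2 fold changes from -0.41 for Sema5b to 0.77 for Sema3f, the 8 plexins and neuropilin from -0.55 for Plxnd1 to 0.73 for Plxnc1, the 7 ephrins from -0.39 for Efna5 to 0.59 for Efnb3, the 3 netrins from -0.73 for Ntn5 to 0.38 for Ntn4 and the 4 netrin receptors from -0.19 for Unc5a to 0.71 for Unc5b. In several of these CVST+Ligation 2 stood apart. There, Sema3f, a secreted ligand of neuropilin-2, was at 26.5 CPM, against 6.90 and 8.88 in the other 2 libraries of its group. Unc5b, a netrin receptor also found on vessels, was at 48.4 against 17.9 and 23.6 CPM, whereas Efna3 was at 14.2 against 40.1 and 49.5. Of the 67 members, 13 had their lowest value in CVST+Ligation 2, where 16.6% of all genes had theirs. More members, 20 of 67, had their lowest value in CVST 3, where 20.4% of all genes had theirs.

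Known ligand and receptor pairs were set side by side in CVST+Ligation vs CVST. For Ntn1 and its receptor Dcc the log2 fold changes were 1.24 and 0.96, both called. For Sema4d and Plxnb1 they were 0.23 and 0.51, the receptor alone being called, and the same held for Slit2 and Robo1 at 0.26 and 0.72. For Sema6d and Plxna1 they were 0.91 and 0.57, the ligand alone being called. None of Sema3e and Plxnd1 (-0.01 and -0.55), Sema7a and Plxnc1 (-0.30 and 0.73), Sema3a and Nrp1 (0.01 and 0.37) or Efnb2 and Ephb4, the pair of arteries and veins (-0.08 and 0.04), was called. Without CVST+Ligation 2, Ntn1, Plxnb1 and Sema6d were not called, Dcc and Robo1 still were, and Plxnc1 and Nrp1 were called. These pairs were chosen after the values were seen, and the difference within a pair was not tested.

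Counted by role, in CVST+Ligation vs CVST, 5 of 34 ligands (14.7%) were higher and 1 (2.94%) lower, and 5 of 33 receptors (15.2%) were higher and 3 (9.09%) lower, beside 5.47% and 4.18% of all genes. Their median log2 fold changes were 0.20 and 0.34, against 0.00 over all genes. In 4-PBA vs CVST, 7 ligands (20.6%) and 6 receptors (18.2%) were higher, beside 8.07% of all genes, and 3 of each (8.82% and 9.09%) were lower, beside 7.33%. The difference between ligands and receptors was not tested.

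The signalling genes behind these receptors were counted from a list of 100, of which 97 were tested. In CVST+Ligation vs CVST, 9 (9.28%) were higher and 6 (6.19%) lower, beside 5.47% and 4.18% of all genes, with a median log2 fold change of 0.12 against 0.00, and none passed an adjusted p of 0.05 in edgeR. In 4-PBA vs CVST+Ligation, 0 were higher and 5 (5.15%) lower, beside 1.81% and 1.42% of all genes. In 4-PBA vs CVST, 12 of 97 were higher and 19 (19.6%) lower, beside 8.07% and 7.33%. Ngef, an exchange factor that acts downstream of Eph receptors, was at 485, 539 and 319 CPM in CVST, 158, 108 and 229.8 in CVST+Ligation and 146, 207 and 151 in 4-PBA. It was lower in CVST+Ligation than in CVST, at -1.44 (SE 0.29, adjusted p = 0.25), the smallest p of the list. The striatal marker list was at 1112, 840 and 403 CPM in CVST, 137, 128 and 204 in CVST+Ligation and 217, 549 and 113 in 4-PBA. Its part in the Ngef result was not tested.

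Of the 19 genes tested for the cytoskeleton, with the CRMP family that relays semaphorin signals to it, 3 were higher and 3 lower in CVST+Ligation than in CVST (each 15.8%), beside 5.47% and 4.18% of all genes. Dpysl3 and Dpysl5 of the CRMP family were higher, whereas its other members Crmp1, Dpysl2 and Dpysl4 were not called, at 0.11, 0.22 and 0.02 on the log2 scale, and Dpysl4 was lower in 4-PBA than in CVST, at -0.55 (SE 0.18, adjusted p = 0.192), and than in CVST+Ligation, at -0.58. These 3 are named after their values were seen. Dpysl3 was at 25.9, 18.4 and 20.6 CPM in CVST, 42.5, 40.6 and 36.3 in CVST+Ligation and 42.5, 57.9 and 38.1 in 4-PBA, and Dpysl5 at 15.9, 10.9 and 15.8 CPM in CVST, 28.7, 26.5 and 28.9 in CVST+Ligation and 31.7, 35.5 and 21.4 in 4-PBA. For both, all ligated libraries lay above CVST, with log2 fold changes of 0.88 (SE 0.20, adjusted p = 0.281) and 0.98 (SE 0.22, adjusted p = 0.283). Ntng1, a membrane-anchored netrin relative, was at 8.37, 9.98 and 21.4 CPM in CVST, 37.2, 30.6 and 34.8 in CVST+Ligation and 50.2, 31.7 and 46.3 in 4-PBA, with 1.37 (SE 0.34, adjusted p = 0.288). The thalamic list was at 62.1, 60.6 and 95.8 CPM in CVST, 214, 793 and 339 in CVST+Ligation and 581, 435 and 749 in 4-PBA, and its part in the result was not tested. The other genes higher among the first 10 by p were Grb10, an adaptor, at 1.11, the Rac exchange factors Vav3 at 1.47 and Tiam1 at 0.58, the actin regulator Enah at 0.47, the Ras inhibitor Rasa1 at 0.63 and the transcription factor Nfatc2 at 0.78 on the log2 scale.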

How the data were processed

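RNA was sequenced from the brains of 9 mice, 3 per group, grouped by the names in the labels. The methods name fastp, HISAT2 in its orientation mode, StringTie and RSEM, and the submitters' processing notes the build mm10/GRCm38. Program versions, the annotation and the counting program are not given in the sources used here. The authors deposited counts, whole numbers of reads per gene symbol without normalization, and a normalized table treated here as FPKM. The methods name TPM as the measure of transcript abundance. Each deposited FPKM equals the count over the library total and 1 length per gene. Of the 17446 lengths recovered, 74.8% are multiples of 3, and for all 67 members they are below the exonic bases of GENCODE M21, so they resemble coding lengths. Library totals were 18100739 to 25091498 counts, and intervals from counts would cover counting error only. Within groups, log2 CPM correlated across genes with r of 0.954 to 0.987, and the counts of any pair differed by at least 22.3 times the degrees of freedom in a chi-square test.

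Counts were fitted in R 4.3.3 with edgeR 4.0.16 (TMM, filterByExpr with the groups, glmQLFit and glmQLFTest), all 9 libraries in 1 model of 3 groups, which leaves the spread shared, and p-values were two-sided and adjusted over 14746 genes by the Benjamini-Hochberg method. A member was called at an unadjusted p below 0.05, the threshold in the statistics section of the methods, and a p in the text is unadjusted unless called adjusted. The common biological coefficient of variation was 0.287. Values per library are CPM on the TMM scale. Genes named with all library values were those called in any comparison and the member of highest mean FPKM in each family, and pathway genes were the first 10 by p in CVST+Ligation vs CVST. Alternatives were DESeq2 1.42.0 and its size factors, total count scaling, other filters, 2 groups alone, a replicate block, a lowess correction for gene length (span 0.3), limma 3.58.1 on log2(FPKM + 1) and log2(FPKM + 0.1), and leaving out each library. Leaving out CVST+Ligation 2 and 4-PBA 2 together was added after seeing the data. The steps were tested on simulated data. The members, the lists and the rules were chosen with earlier results of these data known. Figures were drawn with matplotlib 3.10.9.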

Additional observations from a re-analysis of the deposited data

How the results depend on the processing

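The 36 results for single members kept their direction under every alternative, and 16 of them passed in every one. The members called numbered 11 to 15 in CVST+Ligation vs CVST when 1 library was left out (16.4% to 22.4%, beside 8.07% to 11.1% of all genes), 1 to 12 in 4-PBA vs CVST+Ligation (1.49% to 17.9%, beside 1.72% to 10%) and 15 to 29 in 4-PBA vs CVST (22.4% to 43.3%, beside 10.1% to 19.1%), 12 and 29 being the counts without CVST+Ligation 2. In 4-PBA vs CVST+Ligation, 5 members instead of 3 were called with the gene length correction, 5 with the replicate block, 5 with both (each 7.46%, beside 3.19% to 3.53% of all genes), and 8 (11.9%, beside 6.64%) without CVST+Ligation 2 and 4-PBA 2 together, a choice made after seeing the data. The replicate numbers share only a number: deviations of same-numbered libraries correlated with r of -0.06 to 0.33, over 0.1 in 4 of 9 pairs, and 16 members were called with the replicate block in CVST+Ligation vs CVST (23.9%, beside 12% of all genes) and 22 in 4-PBA vs CVST (32.8%, beside 17.9%). At an adjusted p, DESeq2 called 2 members in CVST+Ligation vs CVST (2.99%, beside 1.79% of all genes) and 12 in 4-PBA vs CVST (17.9%, beside 5.8%), where 1 (1.49%) was called with all genes of at least 1 count, 1 with only the 2 groups and 1 with the gene length correction, beside 0.642%, 1.61% and 0.556% of all genes, and 0 to 5 (0% to 7.46%, beside 0.0134% to 3.62%) when 1 library was left out. The median log2 fold change of the members in CVST+Ligation vs CVST was 0.15 with the gene length correction, 0.089 with the length correction and the replicate block, and 0.13 to 0.31 when 1 library was left out. In 4-PBA vs CVST it was 0.086 with the gene length correction, 0.096 to 0.28 when 1 library was left out and 0.27 without CVST+Ligation 2 and 4-PBA 2. In 4-PBA vs CVST+Ligation it ran from -0.14 to 0.058, turning to 0.058 without CVST+Ligation 1. The causes of these changes were not tested. Depth limits the members of lowest level most, Epha1 and Sema3d.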
